A study of Mus musculus with 8 samples.

Results

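The genes described here are 10 mouse genes of the death receptor pathway: the ligands Tnfsf10 and Fasl, the receptors Tnfrsf10b, Fas, Tnfrsf1a and Tnfrsf21, the intracellular adaptors Fadd, Tradd and Ripk1, and the inhibitor Cflar. They were chosen by name, and their probes were found through the RefSeq accession that the array files give for each probe. This gave 13 probes for the 10 genes, out of 39429 probes on the array and 19751 genes with a matched symbol. Expression was measured in AtT20 cells, a line of mouse pituitary corticotroph tumor cells that secrete ACTH, on 4 control arrays and 4 arrays of cells incubated with HX630 at 10 μM. HX630 is a synthetic agonist of the retinoid X receptors (RXRs), nuclear receptors that bind DNA alone or with a partner receptor. Both groups were kept for 48 hr in DMEM with stripped serum before the RNA was isolated, and the control cells received no agonist. AtT20 is 1 established line in culture without the other cells of the pituitary. The labels number the samples of a group from 1 to 4 but do not say that these were separate cultures, so the p-values measure the spread between these samples, which may be technical.

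Ligands of the TNF family bind receptors on the cell surface that carry a death domain on their inner side. The TRAIL receptor and Fas gather the adaptor Fadd, which recruits and activates caspase 8, whereas TNF receptor 1 first gathers Tradd and Ripk1 and can turn on NF-kB and JNK signaling as well as cell death. Cflar (c-FLIP) resembles caspase 8 and holds back its activation at the receptor.

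A level is the processed signal of a probe on the log2 scale after its array's 75th percentile was subtracted, so that a level of 0 equals that percentile and a negative level lies below it. limma was run on probes that the scanner software marked as well above background on 4 or more of the 8 arrays, which held for 11 of the 13 probes and for 8 of the 10 genes. A probe was called up-regulated or down-regulated when its adjusted p was below 0.01 and its signal changed by more than 1.5-fold. Where several probes of a gene were tested, the brightest one stood for the gene. Over all 15320 genes tested, 8.38% were called up-regulated and 11.2% were called down-regulated.

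In HX630-treated cells, Tnfsf10 was called up-regulated, and it was the 1 gene of the 8 tested that passed both thresholds. It entered the test only through the HX630 arrays, since its probe was well above background on 0 of the 4 control arrays, and it was not called with normexp background correction and could not be fitted when all 8 arrays had to be above background. Tnfrsf21, Fadd and Tradd were also higher at an adjusted p below 0.01, by less than 1.5-fold. Of the 8 genes, 4 were therefore higher at this adjusted p whatever the fold, against 24.0% of all genes tested. No gene of the 8 was lower at this adjusted p by limma, against 27.2% of all genes, while 1 gene was lower at an unadjusted p below 0.05, against 36.4% of all genes, and the methods' t-test also called 0 genes lower. This count depends on the probe that stands for a gene: 2 of the 3 Cflar probes and the mean of the Tnfrsf1a probes were lower at an adjusted p below 0.01. Signals of the control and HX630 arrays did not overlap for 5 of the 8 genes, which compares with 61.5% of all genes tested. The median log2 fold change of the 8 genes was 0.20, against -0.03 over all genes. Of the probes that do not represent their gene, 1 probe of Tnfrsf1a was called down-regulated.

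The 75th percentile of the processed signal was 1335 to 1863 on the control arrays and 1803 to 1899 on the HX630 arrays, and 69.7% to 73.5% of the probes were well above background. The control arrays shared 1 slide and 1 scan and the HX630 arrays shared another slide and scan, and for every value below an effect of the slide or scan and one of HX630 cannot be told apart. Of the corticotroph markers, Pomc, Tbx19, Neurod1, Pcsk1, Crhr1, Pitx1 and Chga were well above background on all 8 arrays, and Avpr1b was on none. Prl and Tshb, which mark lactotrophs and thyrotrophs, were on none either. On all 8 arrays, 1 of 2 somatotroph markers (Gh) and 2 of 4 gonadotroph markers (Lhb and Nr5a1) were well above background. So were 2 of 3 fibroblast markers (Col3a1 and Dcn). Of 3 endothelial markers, Pecam1 and Kdr were above background on all arrays and Cdh5 on none. Of the 7 markers of T, NK and myeloid cells, which are well-known sources of TRAIL and Fas ligand, 6 were well above background on all arrays. Their summed level, in units of the 75th percentile, was 3.31 to 4.00 on the control arrays and 1.87 to 2.11 on the HX630 arrays. Much of this sum was Cd3e, whose log2 level was 1.30 in control and -0.15 in HX630-treated cells, while Cd14 was at -5.23 and -4.81. The summed level of the 8 corticotroph markers was 526 to 660 on the control arrays and 406 to 430 on the HX630 arrays. Most of this sum was Pomc and Chga, whose mean log2 levels in control cells were 8.03 and 7.99. Pomc, Chga, Pcsk1, Tbx19 and Pitx1 were lower in HX630-treated cells, but Neurod1 and Crhr1 were higher. On their brighter probes, Neurod1 went from 1.29 in control to 2.01 in HX630-treated cells and Crhr1 from -1.02 to 0.09. The part of either sum in the results below was not tested. In bulk RNA of this 1 line, a lower level in all cells and a change in part of the cells cannot be told apart.

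**Figure D1:**
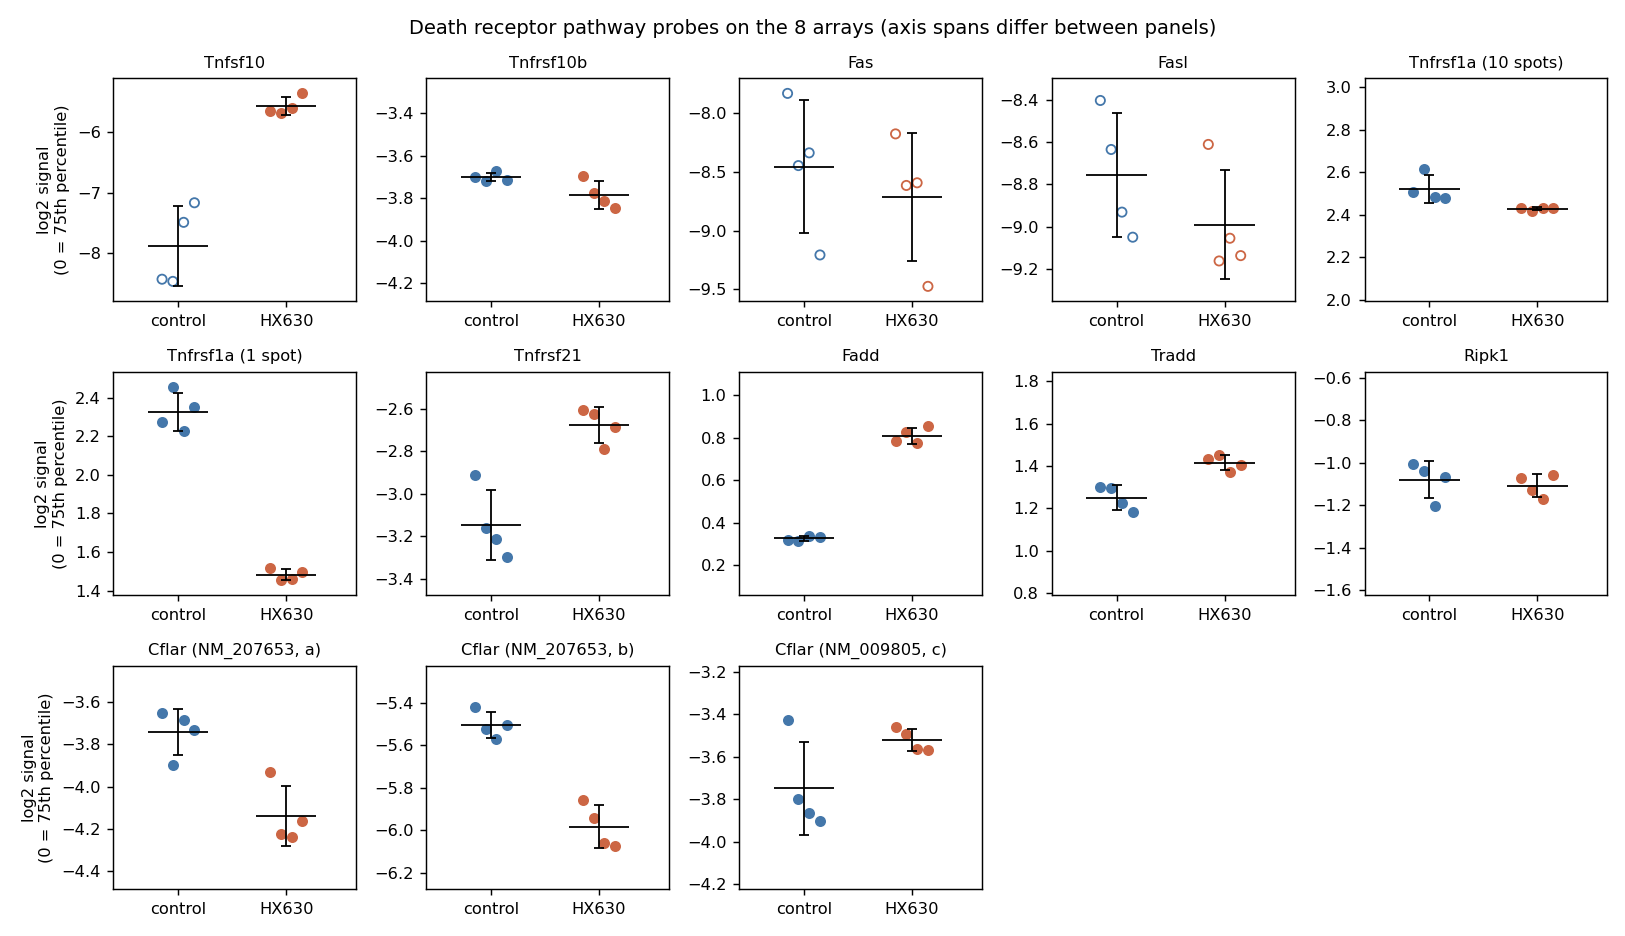
Log2 signal of each of the 13 probes on the 4 control arrays (blue) and the 4 HX630 arrays (orange), 1 point per array, with the mean and SD of each group. Open points belong to groups in which no array was well above background, and the axis spans differ between panels. Tnfsf10 lies at -8.47 to -7.17 on the control arrays and at -5.68 to -5.36 on the HX630 arrays, while Tnfrsf10b and Ripk1 overlap between the groups.

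Tnfsf10 encodes TRAIL, the ligand of the TRAIL death receptor. Because it was the gene that was called, the stretch around its annotated start is shown here, from 250 bases before the start to 30 bases after it, as RefSeq gives it on GRCm38.p6 (chr3:27316827-27317106, plus strand). The capitals mark the reverse complement of AGGTCA, the half-site that RXRs and many other nuclear receptors bind.
Tnfsf10: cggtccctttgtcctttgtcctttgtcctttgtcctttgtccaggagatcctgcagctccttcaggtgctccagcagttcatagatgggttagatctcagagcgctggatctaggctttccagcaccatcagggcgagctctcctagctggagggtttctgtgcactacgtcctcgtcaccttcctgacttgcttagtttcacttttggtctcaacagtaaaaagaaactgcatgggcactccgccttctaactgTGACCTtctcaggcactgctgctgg

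The half-site lay 5 to 10 bases after the start and was the 1 match to AGGTCA, on either strand, in 9 promoters of these genes. RefSeq gave promoters of 300 bases for 8 of the 10 genes, with 2 for Ripk1 and none in the table for Tnfrsf10b and Tradd. Of all 32851 mouse promoters in the same table, 16.3% held this motif. Matches of 6 letters are frequent, and such a match is a description of the sequence and not a binding site. In the Tnfsf10 promoter 52.3% of the bases were G or C, against a median of 52.7% over all promoters.

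The processed signal of the Tnfsf10 probe was 3.86, 3.83, 10.3 and 11.7 on the 4 control arrays and 35.9, 36.0, 37.8 and 46.2 on the 4 HX630 arrays. It was well above background on 0 of the 4 control arrays and on 4 of the 4 HX630 arrays. The lowest HX630 signal was therefore above the highest control signal, but the control arrays give no level of Tnfsf10 above background. Scaled to the array, the level was -8.43, -8.47, -7.49 and -7.17 on the control arrays, with a mean of -7.89 ± 0.66 (SD, n = 4). On the HX630 arrays it was -5.65, -5.68, -5.60 and -5.36, with a mean of -5.57 ± 0.14 (SD, n = 4). The control level was then set to the lowest signal that was well above background on each control array. Against it, the Tnfsf10 signal was 2.09-fold higher in HX630-treated cells. This is not a lower limit of the change, since normexp background correction gave log2 fold changes of 0.07 and 0.30. limma gave an adjusted p of 0.0003245 for the measured levels, in a fit that sets the HX630 signals against control signals not above background.

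The Tnfsf10 spots were dim on all arrays. Before background subtraction, the median intensity of the spot was 47.5 to 56.5 on the control arrays and 73 to 82 on the HX630 arrays. The 153 negative control spots, which match no mouse transcript, had a median of 37 to 50 on the control arrays and 35.5 to 49 on the HX630 arrays. The Tnfsf10 spot lay above the median of the negative controls on every array. It was at 51.5 against 50 on control array 1, at 53.5 against 37 on control array 4 and at 82 against 49 on HX630 array 1. The spread of the negative control spots was not computed, so their distance from the Tnfsf10 spot was not tested. The local background around the Tnfsf10 spot was lower on the HX630 slide, at 20 to 21.5 against 23.5 to 26, and over all spots its median was 21 to 22 against 24 to 25. With normexp background correction in place of the scanner software's processed signal, the log2 fold change was 0.07 with an offset of 50 and 0.30 with an offset of 16. Tnfsf10 was then not called (limma adjusted p = 0.7597 and 0.4407), and over all alternatives that could be fitted its adjusted p ranged from 0.0001112 to 0.7597.

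**Figure D2:**
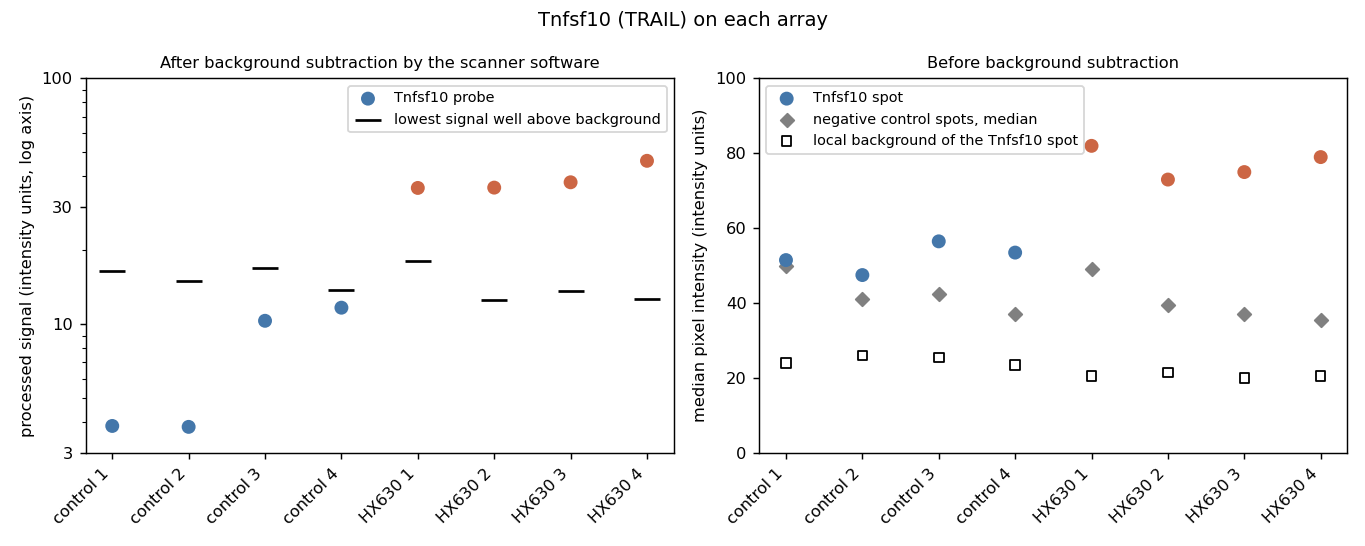
Tnfsf10 on each array, as processed signal on a log axis (left; the bars mark the lowest signal well above background on that array, 12.6 to 18.1) and as median pixel intensity before background subtraction (right), with the median of the negative control spots and the local background of the spot. Control arrays are blue and HX630 arrays are orange. The spots lie at 47.5 to 56.5 on the control arrays and at 73 to 82 on the HX630 arrays, above the negative control median on each array.

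Fasl encodes Fas ligand, which T and NK cells use to kill their targets. Its probe was well above background on none of the 8 arrays, with processed signals of 3.18 to 3.94 on the control arrays and 3.22 to 4.61 on the HX630 arrays. It was not tested, and a change in Fasl was not detectable at this signal.

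Tnfrsf10b encodes the mouse TRAIL death receptor. Its level was -3.70, -3.72, -3.67 and -3.71 on the control arrays and -3.69, -3.78, -3.82 and -3.85 on the HX630 arrays. HX630 array 1 lay among the control arrays and the other 3 lay below them. The log2 fold change was -0.08 (95% interval -0.18 to 0.01), with an adjusted p of 0.118 by limma and a p of 0.1143 in the two-sided exact permutation test. Its sign depended on the scaling, at 0.005 with the median of each array, at 0.0086 with quantile normalization and at 0.15 with scaling to the spike-in probes. Relative to the median of all probes it was -0.03 under 75th percentile, median and spike-in scaling, which move all probes alike.

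Fas, the receptor of Fas ligand, was not well above background on any array. Its processed signal was 2.85 to 5.84 on the control arrays and 2.67 to 6.22 on the HX630 arrays, so that Fas was not tested and neither partner of the Fas ligand-receptor pair was measurable in these cells.

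Tnfrsf1a encodes TNF receptor 1, and its 2 probes carry the same accession, NM_011609. The brighter probe (A_52_P192426), which represents the gene, is printed in 10 spots on each array. Its level was 2.51, 2.62, 2.48 and 2.48 on the control arrays and 2.43, 2.42, 2.43 and 2.43 on the HX630 arrays. The groups did not overlap, but the log2 fold change was only -0.09 (95% interval -0.19 to 0.00), and it was not called (limma adjusted p = 0.07598). The SD among the 10 spots was 0.04 to 0.11 within an array, so that single spots of the groups overlapped. With scaling to the spike-in probes the change was 0.14, although relative to the median of all probes it stayed at -0.04.

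The other Tnfrsf1a probe (A_55_P2051099), with 1 spot, was down-regulated. It measured 2.27, 2.45, 2.23 and 2.35 on the control arrays and 1.51, 1.46, 1.46 and 1.5 on the HX630 arrays. All HX630 arrays lay below all control arrays, at 55.7% of the control level. The log2 fold change was -0.84 (SE 0.05, 95% interval -0.97 to -0.72), with a limma adjusted p of 5.74e-06. It was called under all 24 alternatives, with changes between -0.88 and -0.61. The 2 probes of the same gene lay 0.20 ± 0.06 apart (SD, n = 4) in control cells, whereas in HX630-treated cells they lay 0.95 ± 0.02 apart (SD, n = 4). This divergence of 0.75 on the log2 scale gave p = 0.0286 in the two-sided exact permutation test, the smallest p that 4 against 4 arrays can give, and 0.0381 after Benjamini-Hochberg adjustment over the 4 probe pairs compared. The mean of both probes changed by -0.47 (limma adjusted p = 2.994e-05) and did not reach a fold change of 1.5. Which part of the transcript each probe reads is not given in the sources used here, and the change of Tnfrsf1a as a gene is therefore uncertain.

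**Figure D3:**
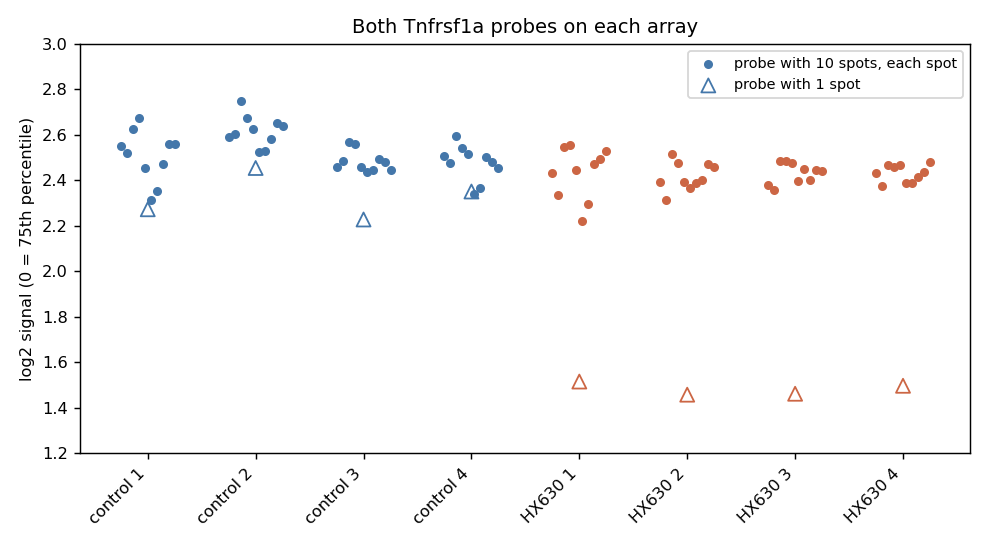
Log2 signal of the 2 Tnfrsf1a probes on each control array (blue) and HX630 array (orange), as the 10 single spots of one probe (points) and the 1 spot of the other (triangles). The spots stay between 2.22 and 2.75 on all arrays, whereas the triangles move from 2.23 to 2.45 on the control arrays to 1.46 to 1.51 on the HX630 arrays.

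Tnfrsf21 encodes death receptor 6, which carries a death domain and is best known from neurons and lymphocytes. Its level was -2.91, -3.16, -3.21 and -3.30 on the control arrays and -2.60, -2.63, -2.79 and -2.69 on the HX630 arrays. All HX630 arrays lay above all control arrays, and control array 1 was the nearest to them. Tnfrsf21 rose 1.38-fold (log2 fold change 0.47, SE 0.09, limma adjusted p = 0.002153), which is below the threshold of 1.5. Spike-in scaling gave a change of 0.70 on the log2 scale, at which Tnfrsf21 was called. With normexp it was 0.29 and 0.35, and the adjusted p (0.01598 and 0.01039) was above 0.01.

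Fadd, the adaptor that joins the TRAIL receptor and Fas to caspase 8, had the smallest limma adjusted p of the 8 genes. Its level was 0.32, 0.31, 0.34 and 0.33 on the control arrays and 0.78, 0.83, 0.77 and 0.85 on the HX630 arrays. The mean rose from 0.33 ± 0.01 to 0.81 ± 0.04 (SD, n = 4 each), and the distance between the groups was many times the spread within them. Fadd rose 1.40-fold (log2 fold change 0.48, 95% interval 0.41 to 0.56, limma adjusted p = 7.784e-06). It passed the fold threshold under spike-in scaling, with 0.71.

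Tradd, the adaptor that binds TNF receptor 1, rose 1.12-fold. It measured 1.30, 1.30, 1.22 and 1.18 on the control arrays and 1.43, 1.45, 1.37 and 1.40 on the HX630 arrays. The groups did not overlap, and the log2 fold change was 0.17 (SE 0.04, limma adjusted p = 0.008384). This rise was small and rested on all arrays being kept: with 1 array left out in turn, the adjusted p was above 0.01 in 7 of 8 cases (0.0102 to 0.0294), and it stayed below only without control array 1 (0.008146). With normexp the change was 0.09, with an adjusted p of 0.09592 and 0.1139.

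Ripk1 encodes the kinase that joins Tradd at TNF receptor 1. Its level was -1.01, -1.04, -1.20 and -1.07 on the control arrays and -1.07, -1.13, -1.17 and -1.06 on the HX630 arrays. The groups overlapped, with a log2 fold change of -0.03 (95% interval -0.15 to 0.09, limma adjusted p = 0.6692, exact permutation p = 0.6). The sign turned to 0.06 with median scaling and to 0.20 with spike-in scaling, while relative to the median of all probes it was 0.03 under each of these scalings.

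Cflar, the inhibitor of caspase 8 activation, was measured by 3 probes that did not move together. Its first probe for accession NM_207653 (A_52_P226929) measured -3.65, -3.90, -3.69 and -3.73 on the control arrays and -3.93, -4.22, -4.24 and -4.16 on the HX630 arrays. The second probe for this accession (A_55_P1983459) measured -5.42, -5.52, -5.57 and -5.51 on the control arrays and -5.86, -5.94, -6.06 and -6.07 on the HX630 arrays. On both probes all HX630 arrays lay below all control arrays, at 76.0% and 71.7% of the control level. The log2 fold changes were -0.40 (SE 0.08, limma adjusted p = 0.004469) and -0.48 (SE 0.06, limma adjusted p = 0.0002537), both short of a fold change of 1.5. With 1 array left out in turn, the adjusted p of the first probe was above 0.01 in 6 of 8 cases and at most 0.01563, whereas that of the second stayed below 0.01 in all 8. With normexp the adjusted p of the second was 0.02734 and 0.0499. Under spike-in scaling they changed by -0.16 and -0.25, the same amounts relative to all probes as before.

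The Cflar probe for accession NM_009805 (A_55_P1983468), the brightest of the 3, measured -3.43, -3.80, -3.87 and -3.90 on the control arrays and -3.46, -3.49, -3.56 and -3.57 on the HX630 arrays. Control array 1 was the highest of all 8, and the other 3 control arrays were the lowest. The log2 fold change was 0.23 (95% interval -0.01 to 0.47, limma adjusted p = 0.09153), so that a change was not established on this probe. Without control array 1 the change was 0.34 and the adjusted p was 0.0006854, whereas leaving out any other array kept it above 0.01. Under spike-in scaling the change was 0.46 (limma adjusted p = 0.001393). The change of this probe differed from that of the others by 0.62 and 0.71 on the log2 scale, each with p = 0.0286 in the two-sided exact permutation test and 0.0381 after adjustment over the 4 pairs, whereas the changes of the NM_207653 probes differed by 0.08 (p = 0.314). The mean of the 3 probes changed by -0.22 (limma adjusted p = 0.02349). The direction given for Cflar thus depends on the probe.

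**Figure D4:**
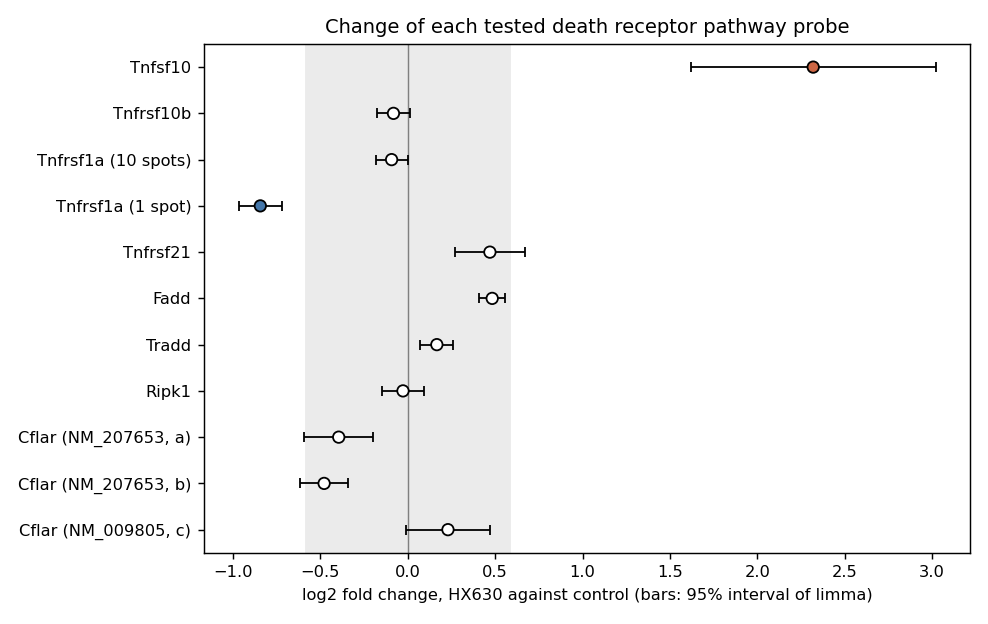
Log2 fold change of the 11 tested probes in HX630-treated against control cells, with the 95% interval of limma. Orange marks a call up (Tnfsf10 at 2.32, whose control level is below background), blue a call down (the 1-spot probe of Tnfrsf1a at -0.84), white no call, and the gray band covers changes under 1.5-fold. The Cflar panels a and b are the NM_207653 probes and c is the NM_009805 probe.

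The promoters were also searched for GAAANNGAA, a short form of the interferon response element, since TRAIL is a known interferon-responsive gene, and for GGACTTTCC, an NF-kB site, on both strands. The interferon element was found in 2 of the 9 promoters, against 8.56% of all promoters, and these belonged to Cflar and Ripk1. The NF-kB site was in 0 of the 9 promoters, against 0.344% of all promoters. The Cflar match lay 7 to 15 bases after the start that the promoter table gives, and the Ripk1 match spanned the start of its promoter, from 5 bases before it to 3 after it. A stretch of 30 bases around each is shown because these hold the matches to this element among these genes, with the match in capitals (Cflar at chr1:58711488-58711517, Ripk1 at chr13:34002859-34002888, RefSeq on GRCm38.p6, plus strand).
Cflar: cacgtctgctTTCGGTTTCtgggcgtctcc
Ripk1: aacgttcccgGAAATCGAAaagcgcggaac

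No match overlapped a match to another motif, and the Tnfsf10 stretch above held none of the last 2 motifs. Neither Cflar nor Ripk1 was called, and nothing about a factor follows from these letters.

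Partner genes of the pathway were then described in 8 lists of its other receptors, ligands, complexes and branches, which hold 86 genes as counted here. Of these, 85 had a probe and 79 were tested, with 7 called up-regulated and 6 called down-regulated. This is 8.86% and 7.59% of the genes tested, beside 8.38% and 11.2% of all genes. The median log2 fold change of the 79 genes was 0.03.

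Among 7 tested ligands of the TNF family other than Tnfsf10 and Fasl, 1 was called up-regulated, with a median log2 fold change of -0.06. This was Ltb, lymphotoxin beta, which measured -5.79, -5.82, -5.85 and -5.92 on the control arrays and -4.28, -3.92, -3.87 and -4.01 on the HX630 arrays. All HX630 arrays were clearly above the control arrays, by 1.82 on the log2 scale (SE 0.09, limma adjusted p = 1.597e-06). With normexp at an offset of 50 the change of Ltb was 0.58, just under the fold threshold. Tnfsf14 (LIGHT), like Tnfsf10, entered the test only through the HX630 arrays, with 0 control arrays and 4 HX630 arrays well above background. It was not called (limma adjusted p = 0.02654). With control levels under the lowest signal well above background raised to that signal, it was 1.31-fold higher, which is not a lower limit of the change. Lta and Tnfsf11 were not well above background on enough arrays to be tested.

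The decoy receptors include Tnfrsf22 and Tnfrsf23, mouse receptors that bind TRAIL without passing on a death signal. Of the 4 decoy genes, 2 were called down-regulated, and the median was -0.51 over changes in both directions. Tnfrsf11b changed by 0.87 (limma adjusted p = 0.04338) and was not called, with 2 control arrays and 4 HX630 arrays well above background. The list held 1 up-regulated call under quantile normalization, under spike-in scaling, with array weights and without control array 1. Tnfrsf23 measured -1.47, -1.70, -1.44 and -1.20 on the control arrays and -4.02, -4.55, -4.64 and -4.20 on the HX630 arrays. The groups lay far apart, with a log2 fold change of -2.90 (SE 0.16, limma adjusted p = 2.955e-06). Its second probe changed by -0.43 (limma adjusted p = 0.01416) and was not called, although its groups did not overlap either. For Tnfrsf22, the brighter probe changed by 0.10 and was not called, while the dimmer probe was called with -1.04. Tnfrsf22 and Tnfrsf23 are close copies of each other, so that their probes may share signal and the values of each gene are uncertain. The other call was Tnfrsf26, a related receptor, at -1.12 (SE 0.21, limma adjusted p = 0.002097), which was not called with normexp at an offset of 16 (-0.82, limma adjusted p = 0.01249).

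Of 10 other tested receptors, Tnfrsf12a, the receptor of TWEAK, was the 1 called, with a median of -0.18 over the list. It measured 3.06, 2.99, 3.09 and 3.14 on the control arrays and 2.39, 2.28, 2.22 and 2.33 on the HX630 arrays. The groups were far apart for their spread, with a log2 fold change of -0.76 (SE 0.05, limma adjusted p = 7.007e-06). Under spike-in scaling it was -0.53 and below the fold threshold.

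Of 15 tested adaptors and regulators of the receptor complexes, 2 were called up-regulated and 1 down-regulated, with a median of 0.06. Traf5, an adaptor that carries signals toward NF-kB and JNK, fell by 0.88 on the log2 scale (limma adjusted p = 1.651e-06). Tnfaip8, a TNF-induced gene, rose by 0.81 on its brighter probe (limma adjusted p = 2.9e-05) and by 1.6 on the dimmer one, which was above background on 1 control array. With normexp, the change of the brighter Tnfaip8 probe was 0.19 to 0.33 and was not called. Faim, an inhibitor of Fas-induced death, rose by 0.65 (limma adjusted p = 2.937e-05).

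Of 12 tested ubiquitin enzymes and partners acting at TNF receptor 1, 1 was called up-regulated and 1 down-regulated. Tnfaip3 (A20), which takes ubiquitin off signaling proteins and limits NF-kB, rose by 0.64 (limma adjusted p = 9.519e-05), and by 0.55 and 0.57 with normexp, under the fold threshold. Otulin, which removes linear ubiquitin chains, fell by 0.62 (limma adjusted p = 0.0003063), close to the fold threshold. It was called under 19 of the 24 alternatives, and with spike-in scaling the change was -0.39. Without HX630 array 1 it was -0.58, under the fold threshold.

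Of 9 genes tested from the list of executioners downstream of the receptors, 1 was called up-regulated, and the median was 0.07. This was Casp8, the initiator that Fadd recruits. Casp8 measured -0.07, -0.04, -0.12 and -0.17 on the control arrays and 0.51, 0.56, 0.50 and 0.55 on the HX630 arrays. Its log2 fold change was 0.63 (SE 0.04, limma adjusted p = 4.811e-06). All HX630 arrays lay above all control arrays, and Casp8 was called under all 24 alternatives. Ripk3 was not above background on enough arrays to be tested.

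Of 15 tested genes of the NF-kB branch, 2 were called up-regulated and 1 down-regulated, with a median of 0.02. Nfkbia, the inhibitor that holds NF-kB in the cytoplasm, measured 3.42, 3.43, 3.44 and 3.49 on the control arrays and 4.31, 4.38, 4.39 and 4.37 on the HX630 arrays. All HX630 arrays lay above all control arrays, with a log2 fold change of 0.92 (SE 0.04, limma adjusted p = 5.395e-07). Nfkbie, a related inhibitor, rose by 0.75 (limma adjusted p = 0.0008628). Nfkb2, the precursor of the non-canonical branch, fell by 0.80 (limma adjusted p = 0.0001201) and by 0.57 under spike-in scaling, below the fold threshold.

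Of 7 tested genes of the JNK branch, limma called none. At an unadjusted p below 0.05, 3 were higher and 3 were lower, against 31.6% and 36.4% of all genes, and the methods' t-test also called 0. The dimmer probe of Map3k5, an upstream kinase, was called up-regulated (0.75, limma adjusted p = 0.001263), while its brighter probe changed by 0.10. The lowest adjusted p values were those of Mapk9 and Mapk10, which encode kinases of the JNK family, with log2 fold changes of 0.44 and 0.40 (limma adjusted p = 8.287e-06 and 0.000278). The second probe of Mapk9 went the other way, at -0.25 (limma adjusted p = 0.01892), and that of Mapk10 changed by 0.26. Mapk9 was called with normexp (0.61 at either offset) and under spike-in scaling (0.67), where Mapk10 was called as well (0.64). Without control replicate 3, 1 gene of the branch was called down-regulated.

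**Figure D5:**
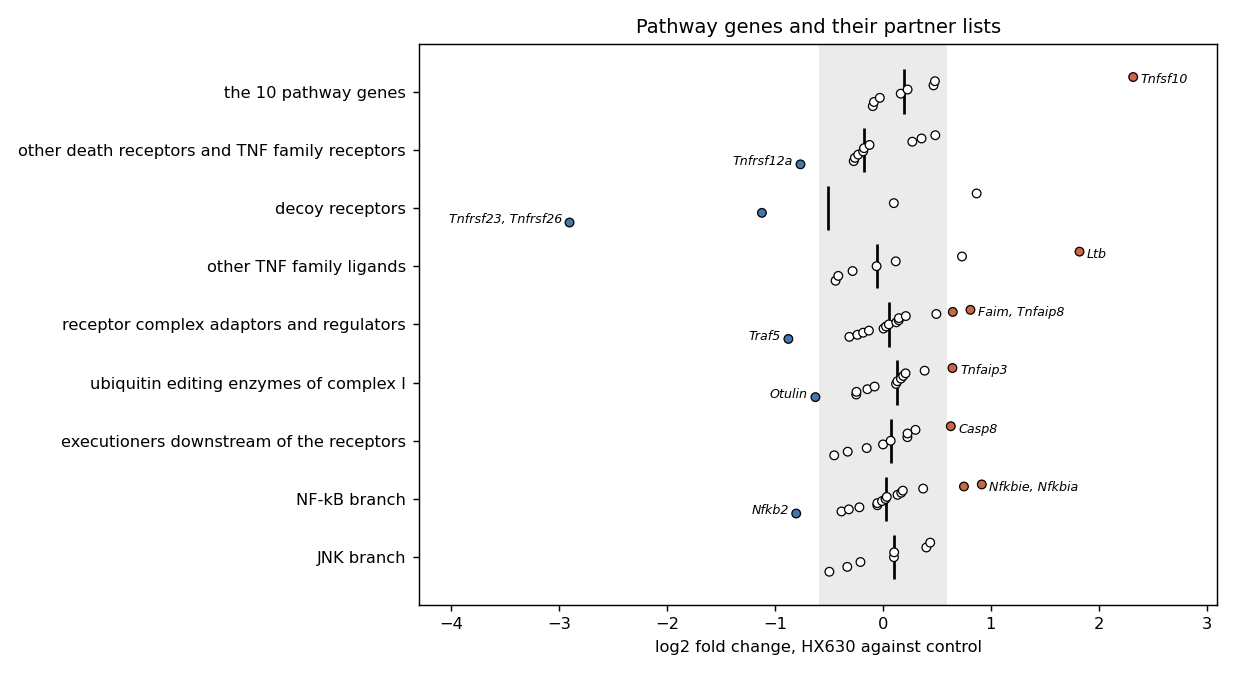
Log2 fold change in HX630-treated against control cells of the tested genes among the 10 pathway genes (top) and in each of the 8 partner lists, 1 point per gene, with the median of each list as a bar. Orange points were called up and blue points down, both named, and the gray band covers changes under 1.5-fold. Casp8 is the call on the list of executioners, and Tnfrsf23 at -2.90 lies farthest from 0.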

How the data were processed

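AtT20 RNA of 4 control and 4 HX630 samples was hybridized to 8 single-color Agilent mouse arrays. Per the labels, the authors read them with Feature Extraction 10.7.3.1, and the deposited intensity of a spot is its processed signal after background subtraction and detrending. A second deposited table holds log2 values of the same arrays. Set against the scanner files, these were the log2 processed signals scaled to the 75th percentile, with differences of at most 0.0013. Scale, centring and direction of that table are thus known.

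In R 4.3.3, spots of a probe were averaged without control spots and outliers, log2 was taken and the 75th percentile of the array was subtracted. Probes well above background on at least 4 of 8 arrays (28553) were tested with lmFit and eBayes of limma 3.58.1 and adjusted by Benjamini-Hochberg over all of them. Single values were compared by an exact permutation test over 70 regroupings. Accessions were matched, without versions, to RefSeq symbols on GRCm38.p6 for 26055 of 39429 probes. The array design uses another build, so that no probe coordinates are given. Motifs were searched in the RefSeq promoter table. The methods' t-test is the one the study names, at a p of 0.01 and a fold change of 1.5.

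Genes were named by rule: all 10 genes with all their probes and, from each partner list, up to 3 called genes with the largest change, or the 2 with the lowest adjusted p where none was called. Tnfsf14, Tnfrsf11b, Tnfrsf19, Tnfrsf22, Map3k5 and genes not tested were named after their values were seen. Members, lists, tests and motifs were chosen with earlier results of these data known. The lists were written from general knowledge. On the list of executioners, 2 genes are not reported here and are left out of its counts and median and of those over all lists. The number of arrays sets the precision. On simulated data with 200 probes changed by 1 on the log2 scale in this comparison, the code recovered 154, with 3 false calls. Alternatives were other scalings, background corrections, filters, variance models, tests and thresholds, a replicate block, the mean of probes and each array left out in turn.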

Additional observations from a re-analysis of the deposited data

Results flagged for a closer look

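An array lay apart from the other arrays of its group in 3 of the 52 groups of 4 examined (11 probes of the pathway genes and the named partner genes), judged by the gap to its nearest neighbor as a share of the group's range. Chance gives about 1 in 20 groups, which is 2.6 of 52. For the 10-spot probe of Tnfrsf1a, HX630 array 2 was at 2.42 and the other HX630 arrays averaged 2.43, with a gap of 0.864 of a very narrow range. For Otulin, control array 1 was at 1.10 against 1.35 on the other control arrays, with a gap of 0.978 of the range. For Nfkb2, HX630 array 4 was at 0.96 against 0.71 on the other HX630 arrays, with a gap of 0.845 of the range.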

How the results depend on the processing

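limma called 2131 probes up and 3185 down, 40.1% of them up. Spike-in scaling, which moved the median of all probes by 0.23 on the log2 scale, gave 4344 up and 1873 down (69.9% up), median scaling 51.6% up, quantile normalization 49.8% up, and normexp 1240 up (31.7%) with an offset of 50 and 1355 up (31.8%) with an offset of 16. Without a fold threshold, 5763 were up and 7246 down. Up-regulated genes among the 8 pathway genes numbered 1, but 3 under spike-in scaling, 4 without the fold threshold, and 0 under both normexp settings and when a probe had to be above background on all 8 arrays, where Tnfsf10 could not be fitted. Down-regulated ones numbered 0 throughout. Leaving out 1 array gave 1944 to 2568 probes up and 2880 to 3370 down, with 1 pathway gene up and 0 down each time. Of 263 results on single probes, 248 kept direction and call. The sign turned for Ripk1 (0.0594 by median scaling, 0.2042 by spike-in scaling), Tnfrsf10b (0.005 by median scaling, 0.0086 by quantile normalization, 0.1497 by spike-in scaling) and the 10-spot probe of Tnfrsf1a (0.1391 by spike-in scaling). Median and spike-in scaling move all probes alike, and relative to the median of all probes these changes were the same as before (0.03, -0.03 and -0.04). The cause of the losses under normexp was not tested. Dim signals limit Tnfsf10, Fas and Fasl. Normexp used the median spot intensity, since the mean is not used here.

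The labels do not say that a replicate number marks a shared culture or batch. Deviations of same-numbered control and HX630 arrays correlated at 0.52, -0.01, 0.24 and 0.38, other pairings at -0.41 to 0.26, and 5 of 8 arrays correlated best with their own number, a hint of pairing from the data that did not hold for number 2. With the replicate number as a block, 2210 probes were up and 3346 down, with 1 pathway gene up and 0 down.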
